A study of Homo sapiens with 6 samples.

Results

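Receptor tyrosine kinase genes were examined for occupancy by the SWI/SNF chromatin remodelling complex in a pair of prostate cancer cell lines. The set holds 50 listed genes from 16 subfamilies, out of 20037 protein-coding genes in the RefSeq GRCh38 table, and all 50 were matched by symbol. A peak was counted for a gene when its summit lay in the gene span or within 50 kb of either end. LNCaP is an androgen-responsive line from a lymph node metastasis, and MR49F is a derivative of LNCaP that is resistant to enzalutamide, an antiandrogen. Per the labels, both lines were grown in RPMI medium with fetal bovine serum, and 10 µM enzalutamide was in the medium of MR49F alone, so the line and the drug in the medium cannot be told apart. Chromatin of both lines was fixed with disuccinimidyl glutarate (2 mM, 45 min) and formaldehyde (1%, 10 min) and precipitated with 4 µg of an antibody to BRG1, the ATPase encoded by SMARCA4, or to SMARCC2, a core scaffold subunit of the complex. There is 1 library for each line and antibody, 4 in all, and the 2 inputs were not analysed here. With no replicates, no difference between lines could be tested, and every count below describes these libraries.

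Receptor tyrosine kinases are membrane proteins that bind a growth factor or a cell-bound ligand outside the cell, pair up, and phosphorylate tyrosines on each other and on docked proteins. Adaptors such as GRB2 and SHC1 then pass the signal to the RAS–MAPK and PI3K–AKT pathways, and CBL, the Sproutys and the DUSP phosphatases damp it. In prostate cancer several of these receptors, among them EGFR, ERBB2, ERBB3, MET, AXL and FGFR1, are studied as routes of growth when androgen signalling is blocked. SWI/SNF moves nucleosomes at enhancers and promoters, and a ChIP-seq peak of its subunits marks where the complex was crosslinked, not whether a gene was transcribed.

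The 5′ ends of 5 receptor genes are shown first, because their start sites carried peaks in MR49F alone (KDR, FLT1, MERTK and EPHA4) or in all 4 lists (EPHB3). Each sequence is the RefSeq promoter window of GRCh38.p14, 250 bases before to 50 bases after the start, read 5′ to 3′ on the strand of the gene. Capitals mark matches on either strand to GGGCGG (the GC box, bound by SP1 and KLF factors), CCGGAA (ETS), TGANTCA (AP-1) or TGTTTAC (forkhead). The windows are chr4:55125546-55125845 on the minus strand for KDR, chr13:28495079-28495378 on the minus strand for FLT1, chr2:111898357-111898656 on the plus strand for MERTK, chr2:221574153-221574452 on the minus strand for EPHA4 and chr3:184561535-184561834 on the plus strand for EPHB3.
KDR: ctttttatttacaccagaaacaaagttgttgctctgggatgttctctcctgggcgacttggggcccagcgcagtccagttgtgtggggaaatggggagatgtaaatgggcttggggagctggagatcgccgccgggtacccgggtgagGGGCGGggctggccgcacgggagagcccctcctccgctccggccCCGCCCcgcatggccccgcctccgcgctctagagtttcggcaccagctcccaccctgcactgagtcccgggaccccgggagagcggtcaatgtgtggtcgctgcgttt
FLT1: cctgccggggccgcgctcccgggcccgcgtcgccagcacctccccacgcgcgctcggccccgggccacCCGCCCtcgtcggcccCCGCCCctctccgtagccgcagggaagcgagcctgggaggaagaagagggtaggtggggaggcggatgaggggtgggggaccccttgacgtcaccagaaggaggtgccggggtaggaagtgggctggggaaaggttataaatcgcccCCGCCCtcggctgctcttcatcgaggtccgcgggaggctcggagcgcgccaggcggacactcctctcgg
MERTK: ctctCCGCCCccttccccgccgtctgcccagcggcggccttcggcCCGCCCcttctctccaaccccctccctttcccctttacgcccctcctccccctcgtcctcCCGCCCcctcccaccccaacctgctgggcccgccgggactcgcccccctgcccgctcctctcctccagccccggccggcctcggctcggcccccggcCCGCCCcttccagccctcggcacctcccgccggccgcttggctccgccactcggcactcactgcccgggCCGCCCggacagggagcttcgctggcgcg
EPHA4: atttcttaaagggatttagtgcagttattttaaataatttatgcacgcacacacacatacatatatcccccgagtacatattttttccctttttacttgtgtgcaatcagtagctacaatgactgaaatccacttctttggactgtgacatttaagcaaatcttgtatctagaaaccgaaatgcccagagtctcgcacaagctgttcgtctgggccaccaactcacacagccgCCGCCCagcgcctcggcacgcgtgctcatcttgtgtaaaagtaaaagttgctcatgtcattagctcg
EPHB3: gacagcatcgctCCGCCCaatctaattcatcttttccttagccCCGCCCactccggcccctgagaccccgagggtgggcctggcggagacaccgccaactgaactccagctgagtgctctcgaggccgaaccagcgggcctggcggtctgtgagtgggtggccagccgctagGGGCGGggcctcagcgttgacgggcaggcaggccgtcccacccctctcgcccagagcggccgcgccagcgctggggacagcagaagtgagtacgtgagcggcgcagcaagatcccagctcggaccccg

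The windows of 4 genes held several GC boxes, 2 in KDR, 3 in FLT1, 5 in MERTK and 3 in EPHB3. EPHA4 stood apart with 12 CpGs and 1 GC box, beside 22 CpGs in KDR, 33 in FLT1, 32 in MERTK and 26 in EPHB3. Over the 46 receptor genes with a promoter window, 73.9% held a GC box, beside 58.3% of 15843 promoters, and 13.0% held the ETS letters, beside 22.7%. The AP-1 letters were in 10.9% of the receptor promoters and 5.70% of all promoters, and the forkhead letters in 2.17% and 2.67%. In the printed windows the capitals are all GC box matches, and a match describes the window and is not a bound site. ERBB3, FGFR1, FLT4 and EPHA10 have no promoter window here.

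The −log10 q-value, in brackets below, is the confidence the authors' caller gave a peak, higher for a stronger call. At the windows printed above, KDR had no peak within 1 kb of its start in LNCaP, and in MR49F a BRG1 peak with its summit 80 bases after the start (8.76) and a SMARCC2 peak 184 bases after it (9.47). Both peaks covered all 300 bases. FLT1 had MR49F summits at 18 bases for BRG1 (7.42) and 32 bases for SMARCC2 (7.28), which covered 218 and 300 of the bases. These are the genes of VEGFR2 and VEGFR1, the VEGF receptors of endothelium, and in both the MR49F peaks sat on the start itself.

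At MERTK the MR49F BRG1 summit was 451 bases before the start (11.3), with a SMARCC2 peak in the same region (2.81), and a further SMARCC2 summit was 442 bases after the start (4.40). At EPHA4 the MR49F SMARCC2 summit was 163 bases after the start (3.77) and the BRG1 summit 822 bases after it (3.12). TEK, the angiopoietin receptor of endothelium, had MR49F summits 548 bases (BRG1, 9.99) and 562 bases (SMARCC2, 11.9) after a listed start. Neither peak reached the 300-base window of that start, and the strongest summit was 0.787 kb from the outermost listed start. The EPHB3 start had peaks in all lists, with −log10 q-values of 26.3 and 13.5 in LNCaP and 38.9 and 54.1 in MR49F for BRG1 and SMARCC2.

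Start sites lay near the background of all genes. Of the 46 receptor genes with a listed start, 29 had a start peak in at least 1 list (63.0%, beside 61.6% of all genes), and 5 had a start peak with both antibodies in MR49F and neither in LNCaP (10.9%, beside 12.2% of all genes): KDR, FLT1, TEK, MERTK and EPHA4. EPHA5 was the 1 gene with the reverse pattern (2.17%, beside 1.04%). Its LNCaP summits were 825 bases (BRG1, 3.38) and 320 bases (SMARCC2, 7.78) before a listed start that lies inside the gene. From the outermost listed start, the strongest summit of this region was 0.681 kb inside the gene. In 9 genes the start had a peak in all 4 lists (19.6%, beside 20.9%): EGFR, FGFR2, MET, RYK, PTK7, EPHA1, EPHA2, EPHB3 and EPHB4. These 9 had a median of 33 CpGs per 300-base window, the 20 genes with a start peak in 1 to 3 lists 29.5, and the 17 without any 11. The same order was seen over all genes, with medians of 30, 26 and 8.

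The LNCaP lists held 36174 peaks for BRG1 and 25706 for SMARCC2, and the MR49F lists 44308 and 47615, all past a q-value threshold of 0.01. Read totals are not in the lists, so sequencing depth is unknown, and a missing peak means that the threshold was not reached. The fold and the −log10 q-value of a peak are those of the authors' caller. For some regions the −log10 q-values of several lists are printed side by side, and each describes a peak within its own list. With depth unknown, no difference in occupancy between the lines is read from these values. All 7 luminal prostate marker genes, KLK3 among them, had peaks in all lists. Of 7 marker genes of leukocytes, endothelium and fibroblasts, 5 also had peaks, with PTPRC and DCN at 0 in all lists, so a peak at a marker gene is not a measure of its expression. Their peaks numbered 17 and 9 in LNCaP and 13 and 9 in MR49F (BRG1 and SMARCC2), and the part of other cells in the results was not tested.

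The windows of the 50 receptor genes took up 238 peaks of the LNCaP BRG1 list, 163 of the LNCaP SMARCC2 list, 286 of the MR49F BRG1 list and 291 of the MR49F SMARCC2 list. MR49F peaks made up 54.6% of the BRG1 peaks of the set (Wilson 95% interval 50.3% to 58.8%, counting error only) and 64.1% of the SMARCC2 peaks (59.6% to 68.4%). Over all protein-coding genes the same shares were 54.6% and 64.1%. In the full lists the set thus had the shares of genes in general. Among the top 10000 peaks per list by −log10 q-value the shares were 55.9% and 55.2%, beside 49.4% and 48.9% over all genes. These values rest on fewer peaks and no counting interval was made for them, so neither likeness nor difference is read from them. A gene had from 0 to 22 BRG1 peaks in LNCaP (median 3.5) and 0 to 21 in MR49F (median 4.5), and from 0 to 23 SMARCC2 peaks in LNCaP (median 2) and 0 to 27 in MR49F (median 4.5). EPHA3 was highest in both LNCaP lists, and EPHA6 in both MR49F lists. Receptor genes are long, with a median span of 84.1 kb beside 24.1 kb for all genes, and per 100 kb of window they had 1.78 and 1.22 peaks in LNCaP and 2.16 and 2.18 in MR49F, beside 1.99, 1.26, 2.50 and 2.40 over all genes.

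**Figure D1:**
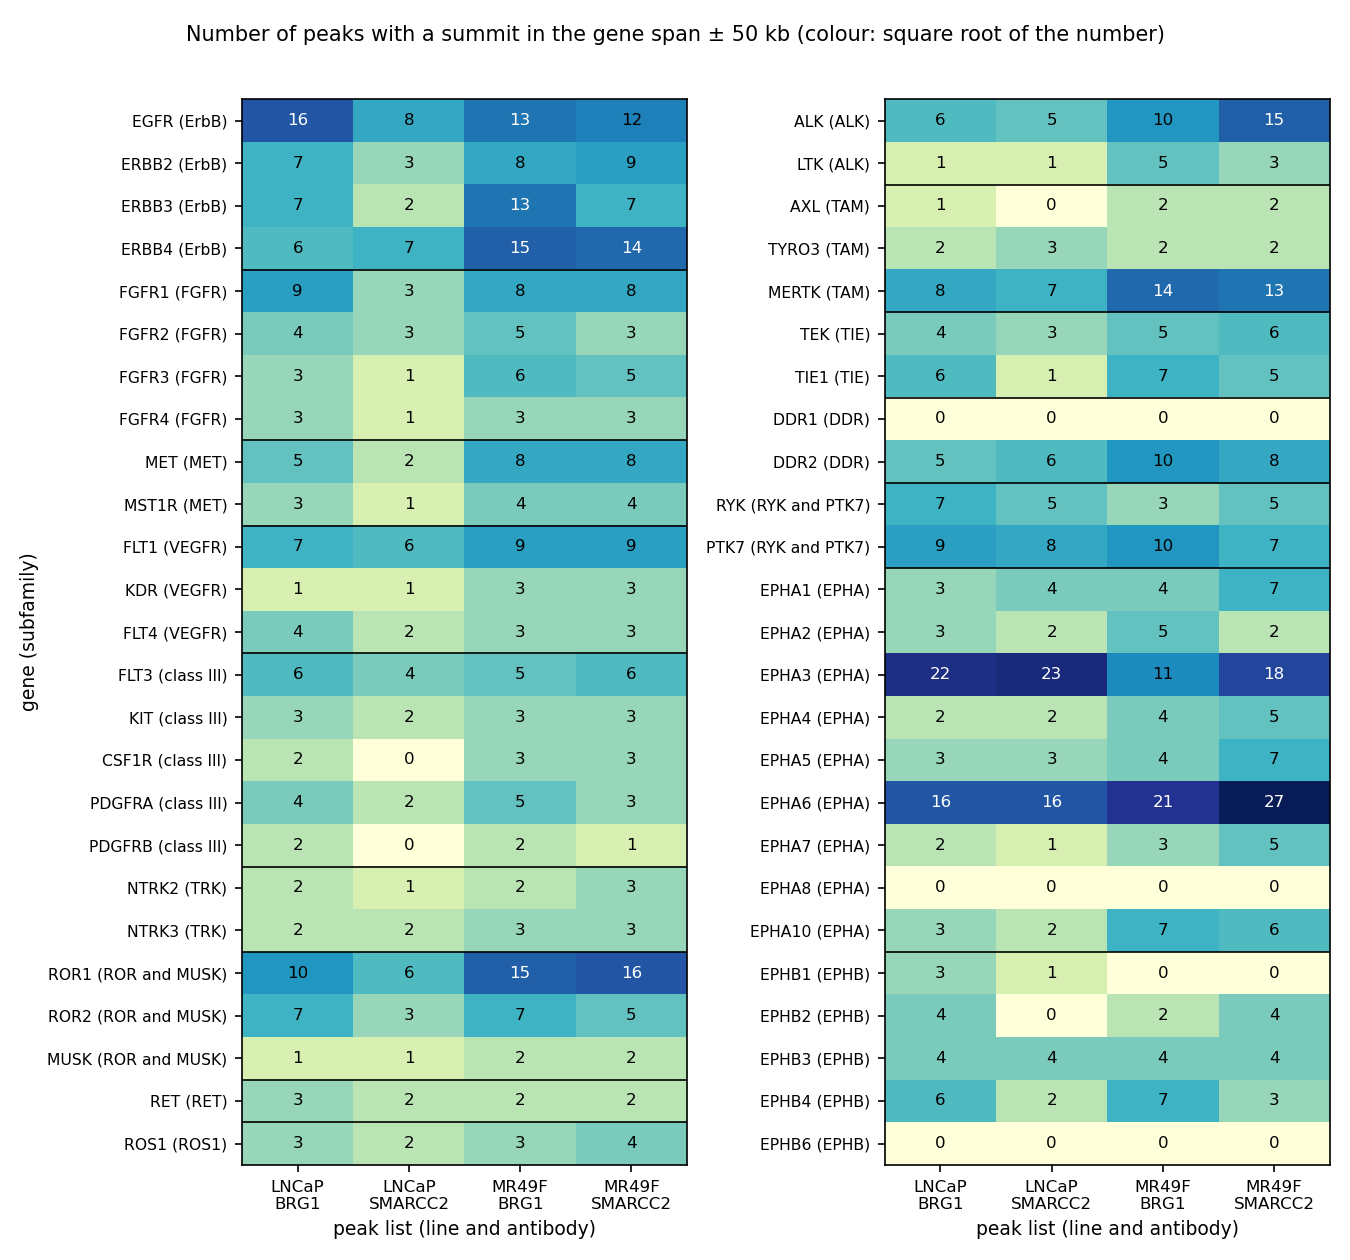
Number of peaks with a summit in the gene span ± 50 kb, for each of the 50 receptor genes (rows, with subfamily) and each of the 4 peak lists (columns). Darker cells hold more peaks, EPHA3 is darkest in the LNCaP columns (22 and 23) and EPHA6 in the MR49F columns (21 and 27), and DDR1, EPHA8 and EPHB6 are at 0 throughout.

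A gene is called MR49F-leaning here when its MR49F count exceeded its LNCaP count for BRG1 and also for SMARCC2, and LNCaP-leaning in the reverse case. Of the 50 genes, 27 were MR49F-leaning (54.0%, beside 44.9% of all protein-coding genes), 2 were LNCaP-leaning (4.0%, beside 4.01%), 18 were mixed or tied, and 3 had no peaks (6.0%, beside 9.39%). Among genes of 50 kb or more, 17 of 31 receptor genes were MR49F-leaning (54.8%, beside 47.9% of 6269 genes) and 2 LNCaP-leaning (6.45%, beside 5.65%). EPHA3 and EPHB1 were the LNCaP-leaning genes. By BRG1 alone 30 genes had the higher count in MR49F (60.0%, beside 51.0%) and 9 in LNCaP (18.0%, beside 20.5%). By SMARCC2 alone the numbers were 38 (76.0%, beside 69.1%) and 4 (8.0%, beside 7.1%). Peaks that shared at least 1 base were then joined into regions, which gave 420 at the receptor genes. Of these, 102 were called in all 4 lists (24.3%, beside 22.7% of all regions), 74 with both antibodies in MR49F and neither in LNCaP (17.6%, beside 18.3%), and 17 with both in LNCaP and neither in MR49F (4.05%, beside 3.67%). These last classes are called MR49F-only and LNCaP-only regions below. The class shares of the set thus lay within a few percentage points of all regions.

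The genes differed in how many such regions they held. At least 1 MR49F-only region was found at 32 genes (64.0%, beside 55.4% of all genes), and at least 1 LNCaP-only region at 10 (20.0%, beside 14.4%). With 4 or more MR49F-only regions there were 8 genes (16.0%, beside 5.06% of all genes), and among genes of 50 kb or more 7 of 31 (22.6%, beside 8.68%). In these long genes at least 1 MR49F-only region was found at 25 of 31 (80.6%, beside 64.9%) and at least 1 LNCaP-only region at 9 (29.0%, beside 22.4%). The 8 genes with 4 or more MR49F-only regions were EPHA6 and ROR1 with 7 each, ERBB4 with 6, MERTK and ALK with 5 each, and EPHA3, ERBB3 and EPHA10 with 4 each. The cutoff of 4 equals the count of the last of these 8, so the contrast with all genes depends on these same values. Nor were spans matched among the long genes, where EPHA6, ROR1 and ERBB4 span 947, 407 and 1160 kb. The LNCaP-only regions were led by EPHA3 with 6 and RYK with 3, and 8 further genes had 1 each. A region in all 4 lists was present at 38 genes (76.0%, beside 60.5%), and a peak in each of the lists at 42 (84.0%, beside 68.1%), or 28 of the 31 long genes (90.3%, beside 80.9%).

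**Figure D2:**
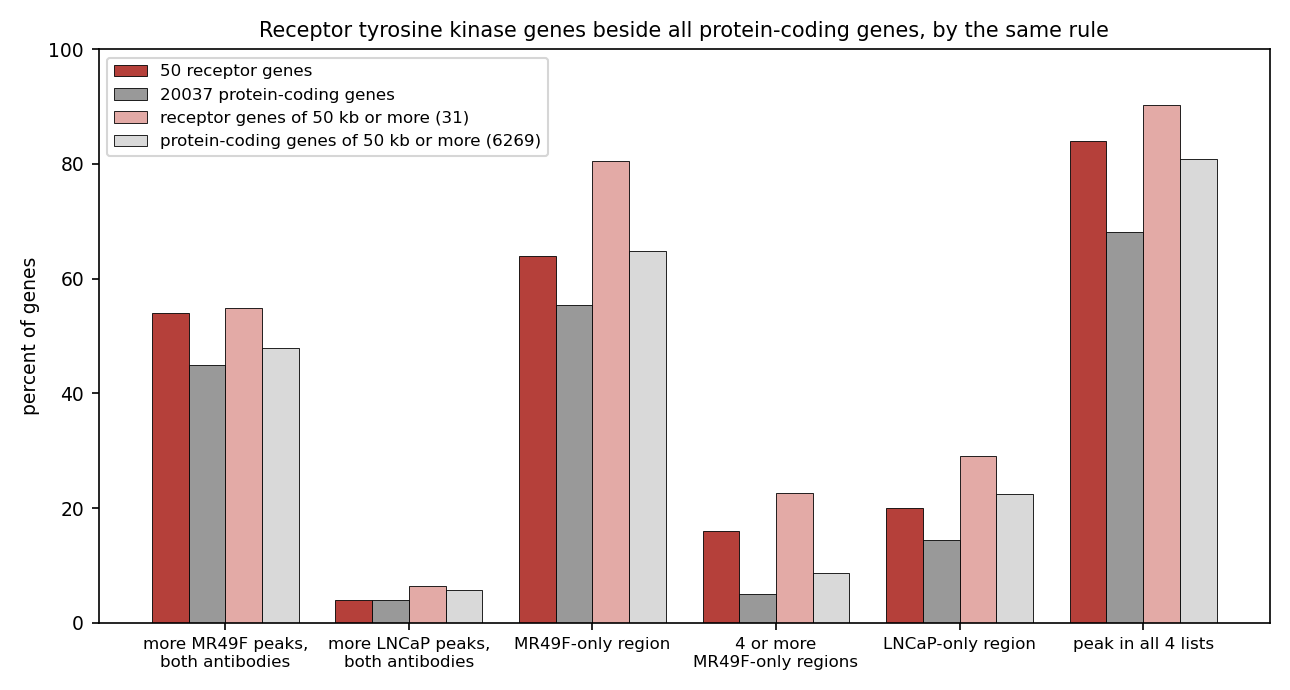
Percent of genes (vertical axis) that meet each of 6 rules (horizontal axis), for the receptor genes and all protein-coding genes, with genes of 50 kb or more also shown apart. The bars for more LNCaP peaks are nearly level at 4.0% and 4.01%. Those for 4 or more MR49F-only regions stand at 16.0% and 5.06%, with a cutoff that equals the count of the 8th-ranked receptor gene.

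**Figure D3:**
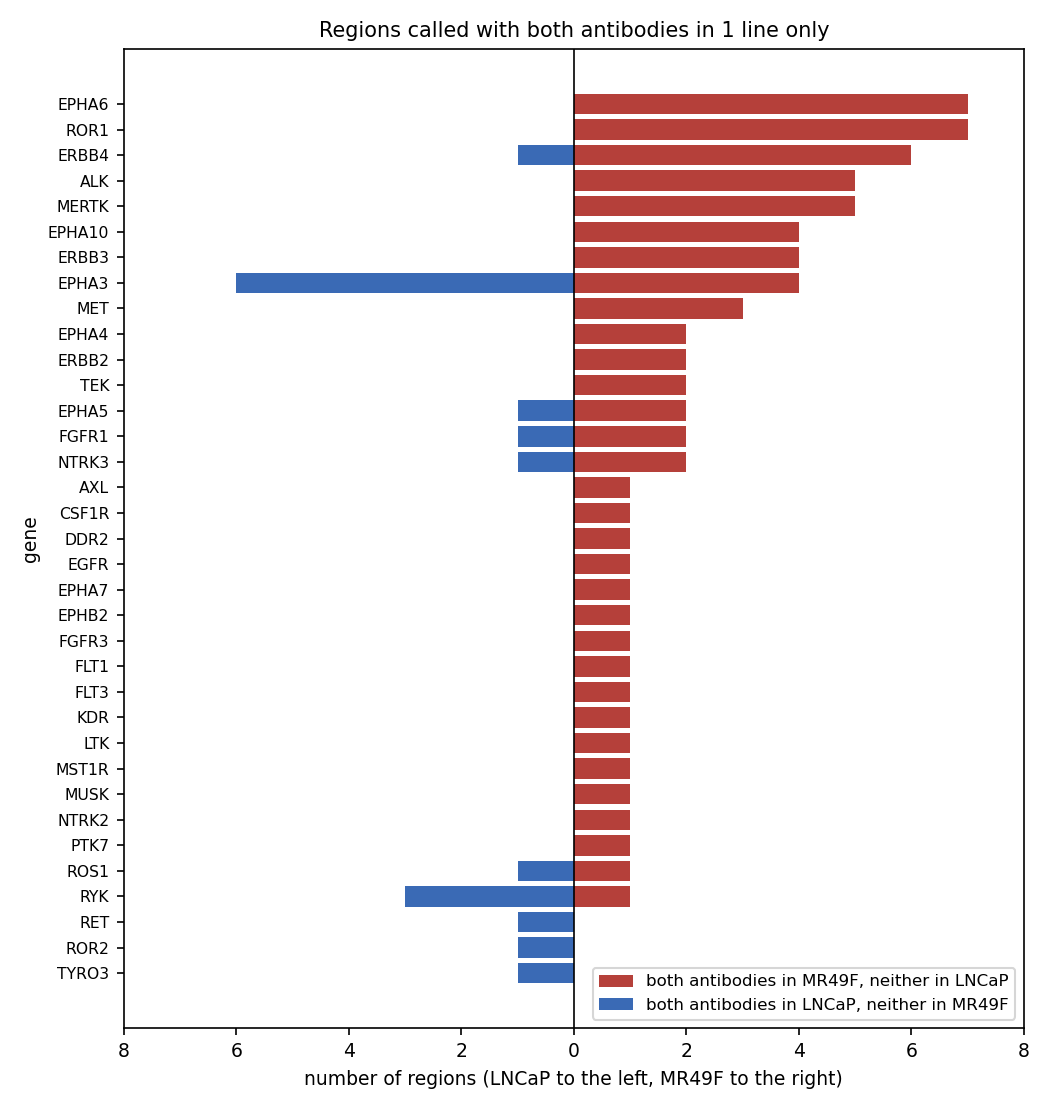
Regions called with both antibodies in MR49F only (bars to the right) or in LNCaP only (bars to the left) at the 35 receptor genes with either kind. EPHA6 and ROR1 reach 7 to the right, EPHA3 reaches 6 to the left and 4 to the right, and RYK 3 to the left and 1 to the right.

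The local background of the lists was set beside these counts. The background under each peak was solved from its fold and p-value, and its median over 10 Mb around each gene was divided by the list's autosomal median. The MR49F to LNCaP ratio of this value ran from 0.744 at PTK7 to 1.28 at ERBB3 with BRG1 (median 1.02), and from 0.770 at EPHA7 to 1.41 at ERBB3 with SMARCC2 (median 1.02). ALK also stood high, at 1.28 and 1.22. ROR1 had 1.15 with BRG1 and 1.03 with SMARCC2, and MERTK 0.932 and 1.13. The ratio was above 1.1 at 6 genes with BRG1 and 10 with SMARCC2, and below 0.9 at 10 and 3. The ratio is given below beside some of the genes, those of the other receptor genes lie within these ranges, and the part of background in the peak counts was not tested.

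The ErbB receptors bind EGF and the neuregulins. In the sentences that follow each pair of counts gives BRG1 first and SMARCC2 second. EGFR had 16 and 8 peaks in LNCaP and 13 and 12 in MR49F, fewer with BRG1 and more with SMARCC2 in MR49F. Its 7 regions in all lists included the start and a region 31.1 kb upstream, chr7:54987541-54989889, with −log10 q-values of 11.2 and 16.2 in LNCaP and 52.8 and 87.9 in MR49F. ERBB2, the ErbB co-receptor without a known ligand, had 7 and 3 peaks in LNCaP and 8 and 9 in MR49F. Its 2 MR49F-only regions lay in the flanks, at the neighbouring genes PGAP3 and MIEN1.

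ERBB3 encodes the neuregulin receptor with a weak kinase. It had 7 and 2 peaks in LNCaP and 13 and 7 in MR49F, but 1 peak of each list lay inside the gene. Of its 2 regions in all lists, chr12:56079029-56082866 covered the edge of the gene span at position 56080108. Its −log10 q-values were 23.5 and 8.29 in LNCaP and 37.3 and 36.4 in MR49F. All 4 MR49F-only regions were in the flank at other genes, 2 at PA2G4, 1 at RPL41 and ZC3H10 and 1 at MYL6B, so without the 50 kb extension ERBB3 had 0. The background ratio of 1.28 and 1.41 around ERBB3 was the highest of the set with both antibodies.

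ERBB4, the other neuregulin receptor, spans 1160 kb and had 6 and 7 peaks in LNCaP and 15 and 14 in MR49F. Its 6 MR49F-only regions were all inside the gene, between 56.2 and 1149 kb from the start. The strongest of them, chr2:211957867-211958517, lay 581 kb from the start with −log10 q-values of 19.5 (BRG1) and 35.0 (SMARCC2). Of the 5 ERBB4 regions in all lists, 3 were within the last part of the gene, 1130 to 1160 kb from the start, and 1 LNCaP-only region lay 311 kb from it (5.06 and 8.30). The background ratio around ERBB4 was 0.925 and 0.964, and its part in the counts was not tested.

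FGF receptors carry signals of the fibroblast growth factors. FGFR1 had 9 and 3 peaks in LNCaP and 8 and 8 in MR49F, with 2 MR49F-only regions and 1 LNCaP-only region. FGFR2 had 4 and 3 in LNCaP and 5 and 3 in MR49F, with a region in all lists at the start and another 8.68 kb inside (26.9 and 39.2 in LNCaP, 51.4 and 85.6 in MR49F). FGFR3 had 3 and 1 in LNCaP and 6 and 5 in MR49F, and its MR49F-only region lay in the flank at LETM1. FGFR4 had 3 and 1 in LNCaP and 3 and 3 in MR49F, and its region in all lists was at NSD1. In this subfamily FGFR3 was the MR49F-leaning gene, and the others were mixed.

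MET, the receptor of hepatocyte growth factor, had 5 and 2 peaks in LNCaP and 8 and 8 in MR49F. A region in all lists lay at its start, and 3 MR49F-only regions lay inside the gene 28.4, 58.7 and 117 kb from it. The last of these, chr7:116788245-116789230, had −log10 q-values of 14.8 and 44.3. MST1R, the receptor of macrophage-stimulating protein, had 3 and 1 in LNCaP and 4 and 4 in MR49F, with 1 MR49F-only region 2.72 kb inside. Both genes of the subfamily were MR49F-leaning, and the MR49F share of their SMARCC2 peaks was 80.0%, with an interval of 54.8% to 93.0% that includes the 64.1% of all genes.

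The VEGF receptors drive the growth of blood and lymphatic vessels. KDR had 1 peak in each LNCaP list and 3 in each MR49F list. Its region in all lists, chr4:55122083-55123032 and 3.10 kb inside the gene, was the strongest receptor gene region of LNCaP, with −log10 q-values of 84.6 (BRG1) and 87.7 (SMARCC2), and had 97.4 and 169 in MR49F. It ranked above 99.9% of the LNCaP BRG1 list and 99.6% of the LNCaP SMARCC2 list, in an epithelial line at the gene of an endothelial receptor. The MR49F start peaks described above form a separate region nearer the start. FLT1 had 7 and 6 peaks in LNCaP and 9 and 9 in MR49F, with 5 regions in all lists, 43.3 to 174 kb inside the gene.

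FLT4, the lymphatic VEGF receptor, had 4 and 2 peaks in LNCaP and 3 and 3 in MR49F and no region of any of the 3 classes above. The region chr5:180594842-180597711 in its flank had a −log10 q-value of 9.59 in the LNCaP BRG1 list, no LNCaP SMARCC2 peak, and 120 and 148 in the MR49F lists. It ranked second among the receptor gene peaks of the MR49F BRG1 list. This region does not count as MR49F-only because of the LNCaP BRG1 peak.

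The class III receptors act mostly in blood cells and mesenchyme. FLT3 had 6 and 4 peaks in LNCaP and 5 and 6 in MR49F, and 3 of its 4 regions in all lists lay at other genes of the flank. Among these 3, chr13:27964642-27967138 at CDX2 had −log10 q-values of 43.3 and 25.7 in LNCaP and 24.8 and 17.6 in MR49F. KIT, the receptor of stem cell factor, had 3 and 2 in LNCaP and 3 and 3 in MR49F. CSF1R, the macrophage receptor of CSF1, had 2 and 0 in LNCaP and 3 and 3 in MR49F, and its MR49F-only region was at HMGXB3. None of the CSF1R peaks was inside the gene. PDGFRA had 4 and 2 in LNCaP and 5 and 3 in MR49F. PDGFRB had 2 and 0 in LNCaP and 2 and 1 in MR49F, and its window shared 5 peaks with that of the neighbouring CSF1R. The class III genes thus held few regions of 1 line, 2 MR49F-only and 0 LNCaP-only.

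Neurotrophin receptors of the TRK family had few peaks. NTRK2, the BDNF receptor, had 2 and 1 in LNCaP and 2 and 3 in MR49F. NTRK3, the receptor of neurotrophin 3, had 2 and 2 in LNCaP and 3 and 3 in MR49F, in 4 regions of which 3 belonged to 1 line, 2 to MR49F and 1 to LNCaP. The remaining region, chr15:88039549-88043248, was in all lists (36.1 and 37.8 in LNCaP, 99.1 and 100.1 in MR49F).

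ROR1 and ROR2 are Wnt5a receptors, and MUSK organises the neuromuscular junction. ROR1 had 10 and 6 peaks in LNCaP and 15 and 16 in MR49F, and its 7 MR49F-only regions all lay inside the gene, 143 to 388 kb from the start. The one with the highest q-ranks, chr1:63983152-63984829, was 210.0 kb from the start (19.4 and 23.3). Of its 4 regions in all lists, chr1:63927768-63929807 had −log10 q-values of 12.4 and 20.7 in LNCaP and 85.7 and 147 in MR49F. No ROR1 region was LNCaP-only. ROR2 had 7 and 3 in LNCaP and 7 and 5 in MR49F, with 0 MR49F-only regions and 1 LNCaP-only region 221 kb from the start (5.84 and 6.42). MUSK had 1 and 1 in LNCaP and 2 and 2 in MR49F. The paralogs ROR1 and ROR2 thus differed, 7 MR49F-only regions against 0, which is a description of 2 genes of unequal length (407 and 228 kb).

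RET, the GDNF family receptor, had 3 and 2 peaks in LNCaP and 2 and 2 in MR49F, with 1 LNCaP-only region 5.61 kb inside. ROS1 had 3 and 2 in LNCaP and 3 and 4 in MR49F, and the background ratio around it was 0.790 and 0.858. Its MR49F-only region, 38.3 kb inside, had −log10 q-values of 24.3 and 29.3, and its LNCaP-only region lay in the flank (4.14 and 5.37). ALK, a receptor of the developing nervous system, had 6 and 5 in LNCaP and 10 and 15 in MR49F. Of 5 ALK MR49F-only regions 3 were inside the gene, 1 of them 1.22 kb from the start (22.5 and 22.6), and 2 were in the flank at CLIP4. LTK, its paralog, had 1 and 1 in LNCaP and 5 and 3 in MR49F, with its MR49F-only region at RTF1. ALK and LTK were both MR49F-leaning, and ALK was so where the background ratio was 1.28 and 1.22.

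The TAM receptors clear dying cells through GAS6 and PROS1. AXL, often raised in drug-resistant tumours, had 1 and 0 peaks in LNCaP and 2 and 2 in MR49F. None of these was inside the gene, and the MR49F-only region was at HNRNPUL1. TYRO3 had 2 and 3 in LNCaP and 2 and 2 in MR49F, with a LNCaP-only region at MGA, and it shared 4 peaks with LTK, 45.4 kb away. MERTK had 8 and 7 in LNCaP and 14 and 13 in MR49F, with 6 regions in all lists and 5 MR49F-only. The strongest of the latter, chr2:111927027-111928311, lay 29.2 kb inside the gene with −log10 q-values of 33.0 and 53.5. Of the TAM genes, MERTK alone had MR49F-only regions inside its span, 3 of the 5.

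Among the angiopoietin receptors, TEK had 4 and 3 peaks in LNCaP and 5 and 6 in MR49F, and TIE1 had 6 and 1 in LNCaP and 7 and 5 in MR49F. All TIE1 peaks lay outside the gene. The collagen receptor DDR2 had 5 and 6 in LNCaP and 10 and 8 in MR49F, with 5 regions in all lists. DDR1, the epithelial collagen receptor, had 0 in every list. The nearest listed summits to DDR1 were at positions 28475142 and 32554951 of chromosome 6, a stretch of 4.08 Mb with 136 protein-coding genes and no listed peak, so its 0 is shared with all its neighbours and says nothing particular to DDR1. The cause was not tested. EPHA8 and EPHB6, the other genes at 0, lay in stretches without summits of 0.208 and 1.14 Mb, and within 1 Mb EPHA8 had 16 and 4 peaks in LNCaP and 40 and 37 in MR49F.

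RYK and PTK7 are Wnt co-receptors without kinase activity. RYK had 7 and 5 peaks in LNCaP and 3 and 5 in MR49F. Inside the gene the counts were 6 and 5 in LNCaP and 1 and 1 in MR49F, and 3 LNCaP-only regions lay 8.42, 14.2 and 36.6 kb from the start. The strongest of these, chr3:134213283-134215051, had −log10 q-values of 10.9 (BRG1) and 13.4 (SMARCC2), at the 76.2 and 80.8 percentile of the LNCaP lists. The RYK start kept a region in all lists (3.30 and 5.90 in LNCaP, 14.3 and 13.3 in MR49F). The background ratio of 0.943 and 0.954 was near 1. PTK7 had 9 and 8 in LNCaP and 10 and 7 in MR49F, with 5 regions in all lists, where the background ratio was 0.744 for BRG1 and 0.952 for SMARCC2. Of these 5, chr6:43145524-43148323 had −log10 q-values of 49.7 and 39.6 in LNCaP and 6.23 and 5.99 in MR49F.

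The EPHA receptors bind ephrin-A ligands on neighbouring cells. EPHA3 had the most LNCaP peaks of the set, 22 BRG1 and 23 SMARCC2, and 11 and 18 in MR49F. Inside the gene the counts were 20 and 22 in LNCaP and 6 and 13 in MR49F. Its 6 LNCaP-only regions all lay inside the gene, between 15.6 and 204 kb from the start, and the strongest, chr3:89265564-89266352, had −log10 q-values of 17.8 and 18.1. The gene thus held 6 of the 17 LNCaP-only regions of the whole set.

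EPHA3 also had 4 MR49F-only regions. One, chr3:89125792-89126585, was 18.5 kb inside the gene, between the LNCaP-only regions at 15.6 and 47.9 kb, with −log10 q-values of 49.3 (BRG1) and 91.6 (SMARCC2), the strongest MR49F-only region of the set by the lower of its ranks in the MR49F lists. The other 3 lay beyond the gene end, 387 to 422 kb from the start of a gene of 375 kb. No other protein-coding gene was annotated at these 3. The background ratio around EPHA3 was 1.01 and 1.02, close to 1. Within the 475 kb window, 5 regions were in all lists.

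**Figure D4:**
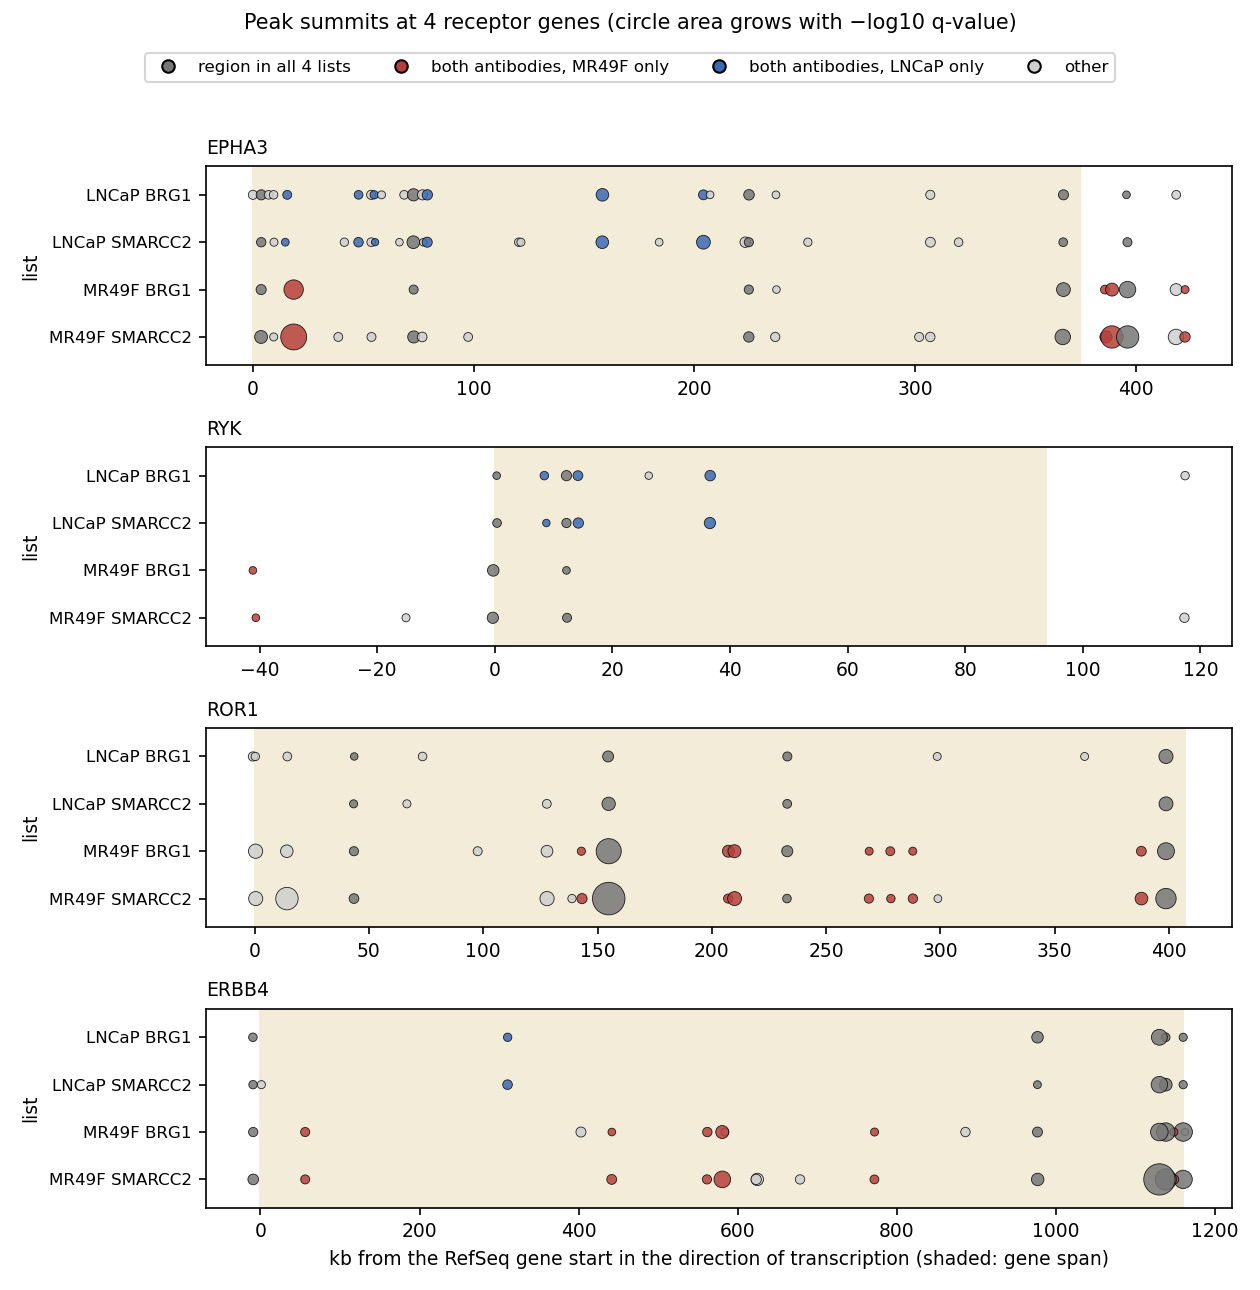
Peak summits of the 4 lists (rows) by distance in kb from the gene start in the direction of transcription, at EPHA3, RYK, ROR1 and ERBB4, with the gene span shaded and circle area growing with −log10 q-value. LNCaP-only regions (blue) lie in the first 204 kb of EPHA3 and the first 36.6 kb of RYK, MR49F-only regions (red) lie 18.5 kb inside EPHA3, beyond its end, upstream of RYK and inside ROR1 and ERBB4, and grey marks regions in all lists or, in the lightest shade, other patterns.

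EPHA6, 7332 kb from EPHA3 on the same chromosome and 947 kb long, had 16 and 16 peaks in LNCaP and 21 and 27 in MR49F. It held the most regions in all lists, 11, and 7 MR49F-only regions, all inside the gene between 5.20 and 542 kb from the start. The strongest of these by BRG1, chr3:96883119-96883837, had −log10 q-values of 44.6 and 23.9. No EPHA6 region was LNCaP-only, unlike the pattern at EPHA3. The background ratio was 1.09 for both antibodies.

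EPHA1 had 3 and 4 peaks in LNCaP and 4 and 7 in MR49F. A region 11.3 kb upstream of it, chr7:143419348-143421040, held the strongest receptor gene peak of both MR49F lists, with −log10 q-values of 160.5 (BRG1) and 282 (SMARCC2), and had 24.6 and 11.98 in LNCaP. EPHA2 had 3 and 2 in LNCaP and 5 and 2 in MR49F. EPHA4 had 2 and 2 in LNCaP and 4 and 5 in MR49F, and its second MR49F-only region, chr2:221610336-221611289, lay 36.7 kb upstream with −log10 q-values of 37.3 and 77.2. EPHA4 was thus among the genes whose strongest MR49F-only region lay away from the start.

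EPHA5 had 3 and 3 in LNCaP and 4 and 7 in MR49F. It had both a LNCaP-only region at the start and 2 MR49F-only regions inside, of which chr4:65631546-65632750, 38.6 kb from the start, had −log10 q-values of 39.2 and 73.9. EPHA7 had 2 and 1 in LNCaP and 3 and 5 in MR49F, with a background ratio of 0.896 and 0.770. EPHA10 had 3 and 2 in LNCaP and 7 and 6 in MR49F, but 3 of its 4 MR49F-only regions lay at other genes of the flank. Across the EPHA genes the MR49F share was 52.2% for BRG1 (43.1% to 61.2%) and 59.2% for SMARCC2 (50.6% to 67.3%).

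The EPHB receptors bind ephrin-B ligands. EPHB1 had 3 BRG1 peaks and 1 SMARCC2 peak in LNCaP and 0 and 0 in MR49F, all inside the gene and none shared between the antibodies, with −log10 q-values of 2.71 to 6.86. EPHB1 lies 544 kb from RYK, whose counts inside the gene were also lower in MR49F, and its background ratio was 0.899 and 0.918. EPHB2 had 4 and 0 in LNCaP and 2 and 4 in MR49F. EPHB3 had 4 in each list, in 4 regions that were all called in all lists, and was the 1 gene with peaks whose count was the same throughout. EPHB4 had 6 and 2 in LNCaP and 7 and 3 in MR49F.

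**Figure D5:**
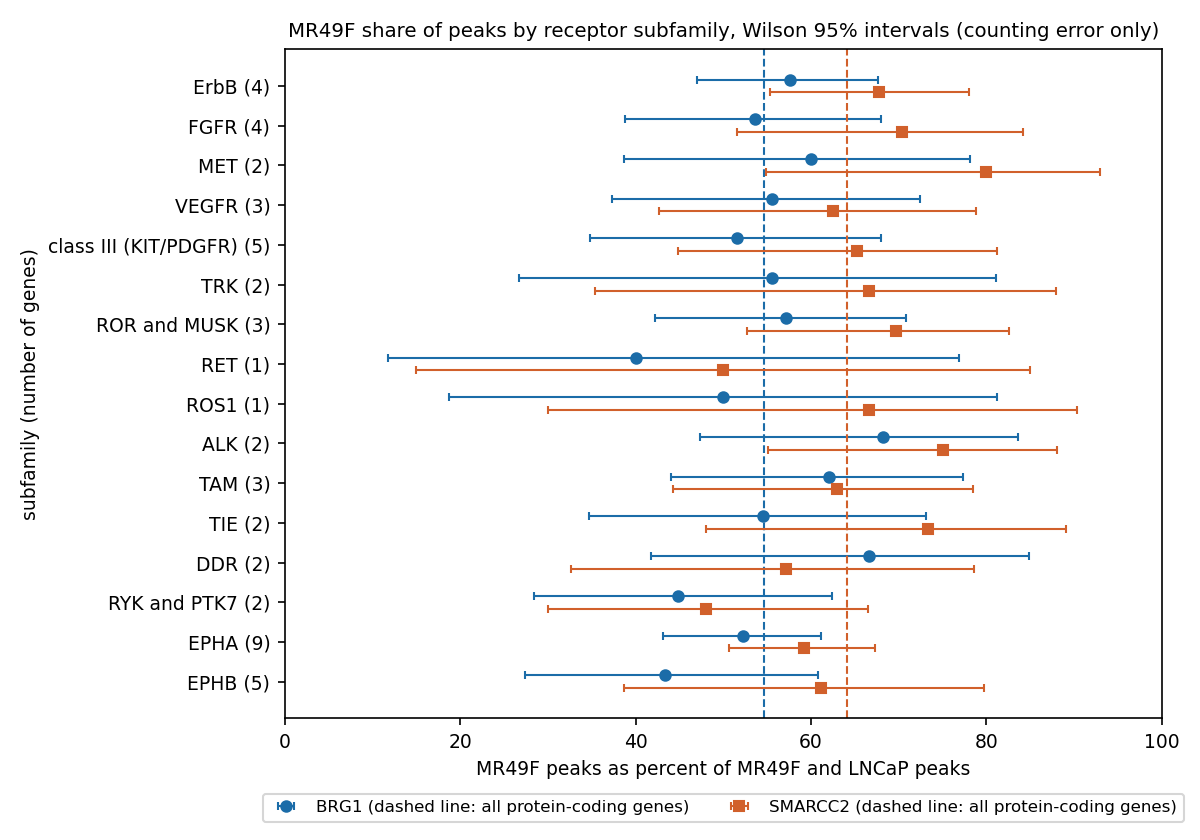
MR49F peaks as a percent of MR49F and LNCaP peaks (horizontal axis) for each subfamily (vertical axis, number of genes in brackets), with circles for BRG1, squares for SMARCC2, Wilson 95% intervals for counting error, and dashed lines at the 54.6% and 64.1% of all genes. The points run from 40.0% (RET) to 68.2% (ALK) for BRG1 and from 48.0% (RYK and PTK7) to 80.0% (MET) for SMARCC2, and all intervals cover the dashed line of their antibody.

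By subfamily, the MR49F share of BRG1 peaks was lowest in RET (40.0%), EPHB (43.3%) and RYK with PTK7 (44.8%) and highest in ALK with LTK (68.2%). For SMARCC2 it was lowest in RYK with PTK7 (48.0%, 30.0% to 66.5%) and highest in MET with MST1R. Every interval, in both antibodies, included the share of all genes. Some intervals were wide, such as 11.8% to 76.9% for BRG1 at RET, and they treat peaks of the same gene as independent. With no replicates either, this coverage is a description and not a test.

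Of the 17 LNCaP-only regions 14 were inside a receptor gene, 1 at a start and 2 in a flank. EPHA3 and RYK held 9 of the 14, and at the other genes 5 of 8 were inside. Of the 74 MR49F-only regions 44 were inside, 5 at a start and 25 in a flank, and 18 of these 25 were at another protein-coding gene. Without EPHA3 there were 11 LNCaP-only regions (2.87%, beside 3.67% of all regions) and 70 MR49F-only regions (18.3%, beside 18.3%). Regions of 1 line were of middling rank, with a median percentile of 54.8 (BRG1) and 48.9 (SMARCC2) within the MR49F lists for the MR49F-only regions, and 41.2 and 44.8 within the LNCaP lists for the LNCaP-only ones. Regions in all lists had medians of 80.0 and 73.1 in MR49F and 74.3 and 59.2 in LNCaP.

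The antibodies met at the receptor genes about as they did elsewhere. In LNCaP 57.4% of the receptor gene regions with BRG1 also had SMARCC2 (50.9% to 63.6%, beside 56.4% of all regions), and 82.0% of those with SMARCC2 had BRG1 (75.3% to 87.2%, beside 80.2%). In MR49F 79.2% of the BRG1 regions had SMARCC2 (74.1% to 83.5%, beside 79.9%), and 79.2% of the SMARCC2 regions had BRG1, beside 75.3%. The smaller share of LNCaP BRG1 regions with SMARCC2 went with the shorter LNCaP SMARCC2 list.

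The other genes of the pathway were read from lists of ligands and of signalling proteins. Their windows also reached 50 kb beyond each end, and peaks inside these genes and in their flanks were not counted apart. Of 53 ligand genes, 26 were MR49F-leaning, 0 LNCaP-leaning and 24 mixed, and 3 had no peaks. Of 45 genes of adaptors, effectors and feedback regulators the numbers were 19, 4, 20 and 2. Over all 20037 protein-coding genes 8991 were MR49F-leaning (44.9%) and 804 LNCaP-leaning (4.01%), and nothing particular to these lists is read from their counts.

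Among the ligands, GAS6, the TAM ligand, had 0 peaks in both LNCaP lists and 4 in both MR49F lists, all 4 of them MR49F-only regions. ANGPT1, the TEK agonist, had 1 and 1 in LNCaP and 8 and 8 in MR49F, with 5 MR49F-only regions and a background ratio of 0.831 and 0.952. VEGFB, a ligand of FLT1, had 7 and 1 in LNCaP and 15 and 13 in MR49F, with 7. Of the receptors of these ligands, AXL, MERTK, TEK and FLT1 were MR49F-leaning and TYRO3 was mixed, beside 44.9% of all genes that were MR49F-leaning. EFNA5, an ephrin for EPHA receptors, had 20 and 17 in LNCaP and 23 and 30 in MR49F, with 4 MR49F-only and 2 LNCaP-only regions. Of the 9 EPHA genes, 6 were MR49F-leaning (beside 44.9% of all genes) and 1, EPHA3, was LNCaP-leaning (beside 4.01%). GAS6, ANGPT1, VEGFB and EFNA5 were picked by their MR49F-only regions, so no accord between ligands and receptors is read from these counts. ANGPT2, a context-dependent TEK ligand, had 7 and 5 in LNCaP and 2 and 7 in MR49F. EFNA2 had 10 and 3 in LNCaP and 11 and 11 in MR49F, with 2 MR49F-only regions and 1 LNCaP-only region. The background ratio around EFNA2 was 0.706 and 0.835. EFNB2 had 6 and 3 in LNCaP and 5 and 3 in MR49F, with 1 MR49F-only and 1 LNCaP-only region.

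Among the signalling proteins SPRED2, a RAS–MAPK inhibitor, had 6 and 6 peaks in LNCaP and 10 and 11 in MR49F, and GAB2, a docking adaptor, had 3 and 2 in LNCaP and 6 and 7 in MR49F, with 4 MR49F-only regions each. DUSP4, a MAPK phosphatase, had 4 and 4 in LNCaP and 9 and 6 in MR49F, with 3 MR49F-only regions. SOS2, CBL and PIK3CB were named for their LNCaP-only regions. SOS2, a RAS exchange factor, had 6 and 5 in LNCaP and 4 and 4 in MR49F. CBL, a ubiquitin ligase for receptors, was MR49F-leaning by its counts, with 5 and 2 in LNCaP and 6 and 3 in MR49F. It had 2 LNCaP-only regions, like SOS2, and 1 MR49F-only region. PIK3CB, a PI3K catalytic subunit, had 11 and 8 in LNCaP and 7 and 6 in MR49F, where the background ratio was 0.776 and 0.787.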

How the data were processed

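Peak lists of 4 ChIP-seq libraries were used, 1 per line and antibody. Per the submitters' processing notes the build is hg38 and the tools MACS2 2.1.0, BWA 0.7.10 and SAMtools, listed without role or order. The control input of each library is not given in the sources used here, nor is the handling of duplicate reads. For each peak the deposited lists hold a fold enrichment, a −log10 p-value and a −log10 q-value as the authors' caller wrote them. The deposited display score was not used, and the deposited summit offset gave the summit.

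Genes, starts and promoter sequences came from RefSeq tables of GRCh38.p14. Peaks of different lists sharing at least 1 base were joined into regions. A start peak has its summit within 1 kb of a listed start, and a gene can have more than 1. Distances of regions in kb are from the outermost listed start. Local background was solved from fold and p-value with a Poisson tail (pseudocount 1) for at least 99.79% of the peaks of each list. Counting scripts were tested on simulated peaks. Python 3.11.15, NumPy 2.4.6, pandas 2.3.3, SciPy 1.17.1 and matplotlib 3.10.9 were used.

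Receptor genes were described in detail by rule: the 8 with most MR49F-only and the 5 with most LNCaP-only regions (ties by total peaks, then symbol), those with the strongest peak of a list, no peaks, or start peaks in 1 line, and up to 4 genes per direction of the ligand and signalling lists. Of the signalling genes that this rule names, 2 are not reported here. FLT4 and the strongest regions of single genes were picked after their values were seen. The cutoff of 4 MR49F-only regions was not part of the rule and equals the count of its 8th gene. The members and lists were chosen with earlier results of these data known. With 1 library per group no test was made.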

Additional observations from a re-analysis of the deposited data

How the results depend on the processing

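Alternatives were a gene span without extension or extended by 10 kb, peaks with −log10 q-value of 5 or more, the 10000 strongest peaks of each list, summits within 200 bp in place of overlap and, chosen after seeing the data, leaving out EPHA3. No paired analysis was possible because each line and antibody has 1 library. The BRG1 share stayed within the counting interval of the full lists in each. With the 10000 strongest peaks it was 55.9% beside 49.4% over all genes, and no interval was made for the shares under the alternatives. The SMARCC2 share was 70.4% with −log10 q-value of 5 or more (all genes 68.3%) and 55.2% with the 10000 strongest peaks (all genes 48.9%). With those 10000, 13 of the 50 genes were MR49F-leaning (beside 11.0% of all genes) and 5 LNCaP-leaning (beside 11.7%). There were 27 MR49F-only regions (beside 14.5% of all regions) and 24 in all lists (beside 14.9%). Without extension there were 48 MR49F-only regions (beside 18.3% of all regions). LNCaP-leaning genes numbered 5 with 10 kb (beside 3.79% of all genes), 1 with −log10 q-value of 5 or more (beside 2.44%) and 1 without EPHA3 (beside 4.01%). LNCaP-only regions numbered 9 with −log10 q-value of 5 or more (beside 3.29% of all regions) and 11 without EPHA3 (2.87%, beside 3.67%). Except without EPHA3, the total of receptor gene regions under the alternatives is not given here. Their region counts therefore cannot be compared with the shares of all regions beside them. MR49F-only minus LNCaP-only regions at EPHA3 turned from -2 to 1 with the 10000 strongest peaks. With those 10000 this difference fell from 7 to 2 at EPHA6 and at ROR1, and from 5 to 2 at ERBB4. At MERTK and at ALK it fell from 5 to 1. The same difference was 0 at ERBB3 without extension, 0 at FGFR1 without extension and with 10 kb, and 1 at EPHA10 with either. Fewer peaks enter the stricter lists by construction, and the other causes were not tested. Depth is unknown, so calls near the threshold are the least certain.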
